A study of Mus musculus with 8 samples.

Results

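The respiratory chain is a set of enzyme complexes in the inner mitochondrial membrane. Complexes I (NADH dehydrogenase) and II (succinate dehydrogenase) pass electrons from the breakdown of fuels to ubiquinone, complex III (the cytochrome bc1 complex) passes them on to cytochrome c, and complex IV (cytochrome c oxidase) passes them to oxygen. Complexes I, III and IV pump protons across the membrane, and complex V (ATP synthase) uses their return to make ATP, which neurons spend largely on ion pumping. A few core subunits are encoded in mitochondrial DNA, and the nuclear genes encode all the others and the factors that assemble them.

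The nuclear genes were taken from the count table by symbol. The names were those that begin with Ndufa, Ndufb, Ndufc, Ndufs, Ndufv, Uqcr, Cox4 to Cox8 or Atp5, and Sdha, Sdhb, Sdhc and Sdhd, with pseudogene names left out. This gave 91 of the 17613 genes in the table. They comprised 45 names of complex I, of which 38 are subunits and 7 the assembly factors Ndufaf1 to Ndufaf7, 4 of complex II, 8 of complex III, 17 of complex IV and 17 of complex V. Ndufa4 was kept under complex I by its name, although its protein is known as a subunit of complex IV, Cox7a2l is known as a factor of respiratory supercomplexes, and Atp5s and Atp5sl are not subunits of ATP synthase. With these last names and the assembly factors left out, 82 subunit genes remained.

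The libraries were made from polyadenylated RNA of C57BL/6 mouse brain, 4 labelled as knockout of Uhrf2 (KO) and 4 labelled wild type (WT). The protein made by Uhrf2 recognises modified cytosines of DNA in the nucleus, and the title of the series ties it to 5-methylcytosine and to seizures. The labels give no allele, age, sex or brain region, and whether each library is a separate animal is not stated, so p-values measure the spread between these libraries, which may be technical.

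The library totals were 13550420 to 19065173 counts in KO and 11891350 to 19773921 counts in WT. Levels are given as CPM, the counts scaled to library size. Uhrf2 (ENSMUSG00000024817, chromosome 19, 30030513 to 30093722 on GRCm38) measured 86.4, 88.6, 88.4 and 91.8 CPM in the libraries labelled KO, against 58.0, 47.7, 57.2 and 58.9 CPM in the libraries labelled WT. It was 1.60-fold higher in the libraries labelled KO, opposite to what a loss of its transcript would give, with a log2 fold change of 0.68 and an SE of 0.058. Its Benjamini-Hochberg adjusted p was 5.45e-06 in the quasi-likelihood test of edgeR, which is the source of every adjusted p below unless another tool is named. Permutation of the group labels, exact and two-sided over 70 assignments, gave p = 0.0286, the smallest it can give. The design of the deletion is not given in the labels, so KO and WT below mean only the libraries that carry these labels, and every direction is that of the first relative to the second. An exchange of the labels and an allele that keeps its transcript cannot be told apart here, and with exchanged labels every direction below would turn. On the first principal component (21.6% of the variance), the groups did not overlap, at scores of -19.8 to -2.69 in KO and 5.79 to 12.9 in WT. On the second (19.8%), the first replicate of each group stood apart, at 13.1 for KO 1 and 21.0 for WT 1. The other 6 libraries lay between -9.02 and -2.49 on it. Results without both first replicates are given where they differ.

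The respiratory chain genes were among the most abundant transcripts of the brain libraries. Per kilobase of transcript, so that genes can be compared with each other, their median level over all libraries was 82.3 CPM per kb, against 8.88 CPM per kb over the tested genes with a transcript length. Of the 91 genes, 65 lay above the 90th percentile and 83 above the median of the tested genes on this scale. By complex, the median level per kilobase was 74.3 for the 38 complex I subunits, 14.8 for their 7 assembly factors, 89.8 for complex II, 135 for complex III, 104 for complex IV and 147 for complex V.

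The highest level among the 91 genes was that of Atp5b, the catalytic beta subunit of ATP synthase, at 726 ± 13.2 CPM per kb in KO and 694 ± 14.8 CPM per kb in WT (SD, n = 4 each, as in all such pairs below). Atp5a1, the alpha subunit that forms the catalytic head with it, reached 408 ± 10.1 CPM per kb in KO and 397 ± 3.50 in WT. Between them lay Cox4i1, the ubiquitous form of subunit IV of cytochrome c oxidase, at 485 ± 18.3 CPM per kb in KO and 486 ± 13.8 in WT, and Cox8a, the ubiquitous form of its subunit VIII, at 471 ± 9.24 CPM per kb in KO and 450.0 ± 24.8 in WT. The 8 libraries of Cox4i1 and of Cox8a overlapped in level. In complex I, Ndufa4 stood at 358 ± 9.21 CPM per kb in KO and 358 ± 13.7 in WT, and Ndufb9, a subunit of the membrane arm, at 211 ± 4.16 in KO and 209 ± 5.47 in WT.

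Within complex II, Sdha, the flavoprotein that oxidises succinate, was at 177 ± 3.25 CPM per kb in KO and 168 ± 2.25 in WT, and Sdhb, the iron-sulfur subunit bound to it, at 109 ± 4.42 in KO and 109 ± 2.56 in WT. The leading genes of complex III were Uqcrh, the hinge protein, at 231 ± 5.24 CPM per kb in KO and 223 ± 8.80 in WT, and Uqcrq, a small subunit, at 172 ± 7.61 in KO and 167 ± 10.9 in WT. The assembly factors were lower. The highest of them, Ndufaf5, which hydroxylates the complex I subunit Ndufs7, reached 25.1 ± 1.07 CPM per kb in KO and 23.2 ± 1.04 in WT, and Ndufaf2 was at 20.1 ± 1.63 in KO and 20.3 ± 1.46 in WT. For 5 genes the longest coding transcript was over 2 times the one used here, namely Uqcrq, Ndufb2, Ndufb8, Ndufab1 and Atp5g1, so their places in this order depend on that choice. For 22 genes at least 1 pseudogene carries a near-identical copy of the transcript or a part of it, and their reads may have been split.

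**Figure D1:**
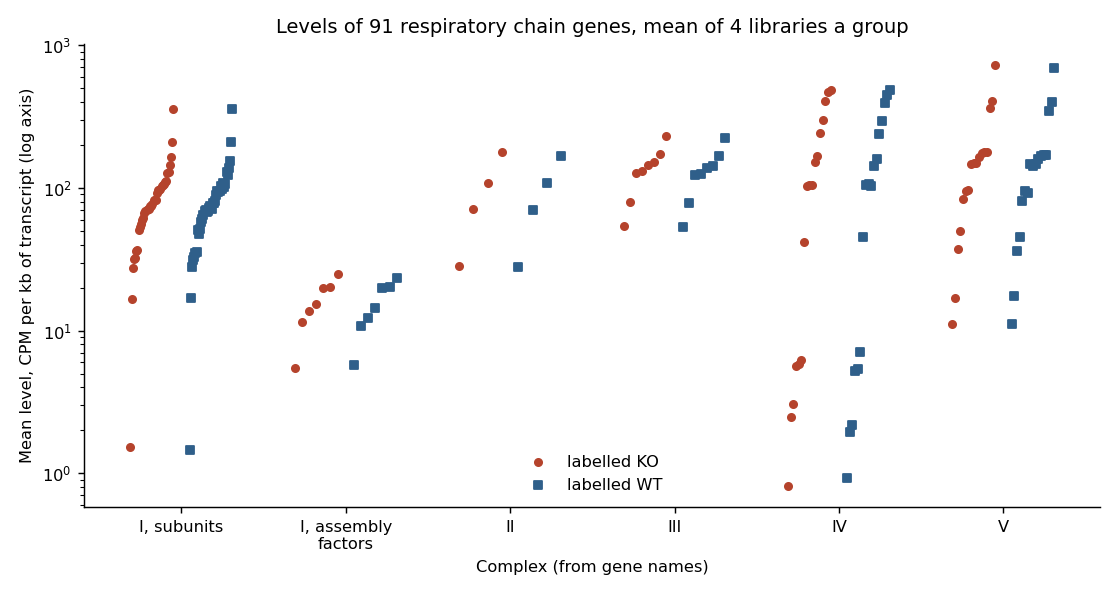
Level per kilobase of transcript (CPM per kb, log axis) of the 91 nuclear respiratory chain genes, grouped by complex, as the mean of the 4 libraries labelled KO (circles) and of the 4 labelled WT (squares). Atp5b leads at 726 ± 13.2 CPM per kb in KO and 694 ± 14.8 in WT, the assembly factors of complex I lie near a median of 14.8, and the lowest points are Cox7b2 of complex IV and Ndufa4l2, placed under complex I by its name.

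Several subunits are encoded by more than one gene, and in these brain libraries 1 form carried nearly all of the level in most such families. As a share of the family's level per kilobase, Cox4i1 held 99.5% ± 0.188 in KO and 99.6% ± 0.115 in WT, against Cox4i2, the form known from lung. Cox6a1 held 98.6% in both groups against the heart and muscle form Cox6a2, and Cox6b1 held 97.5% in KO and 97.1% in WT against Cox6b2, known from testis. Cox7b held 99.2% in KO and 99.1% in WT over Cox7b2, Cox8a held 99.4% in KO and 99.5% in WT over the muscle form Cox8b, and Ndufa4 held 99.6% in both groups over Ndufa4l2, known as induced by low oxygen.

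In the Cox7a and Atp5g families the level was divided when the principal transcripts were used. Cox7a2, the form of subunit VIIa found in most tissues, held 60.2% ± 0.801 in KO and 59.1% ± 1.11 in WT, Cox7a2l held 37.8% in KO and 39.0% in WT, and the muscle form Cox7a1 held 2.05% in KO and 1.91% in WT. Atp5g1, Atp5g2 and Atp5g3 encode the same mature c subunit of the ATP synthase rotor behind different import signals. Atp5g3 held 73.2% ± 0.897 in KO and 72.7% ± 1.10 in WT, Atp5g1 19.3% in KO and 19.8% in WT, and Atp5g2 7.53% in both groups. The shares of this family depend on the transcript length used. With the longest coding transcripts, an alternative added after seeing the data, Atp5g3 held 91.4% in KO and 91.2% in WT, Atp5g2 5.57% in KO and 5.61% in WT, and Atp5g1 3.08% in KO and 3.19% in WT. With the principal transcripts, the shares of the 4 KO and the 4 WT libraries overlapped in every family. The level of Atp5g3 itself did not overlap between the groups.

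**Figure D2:**
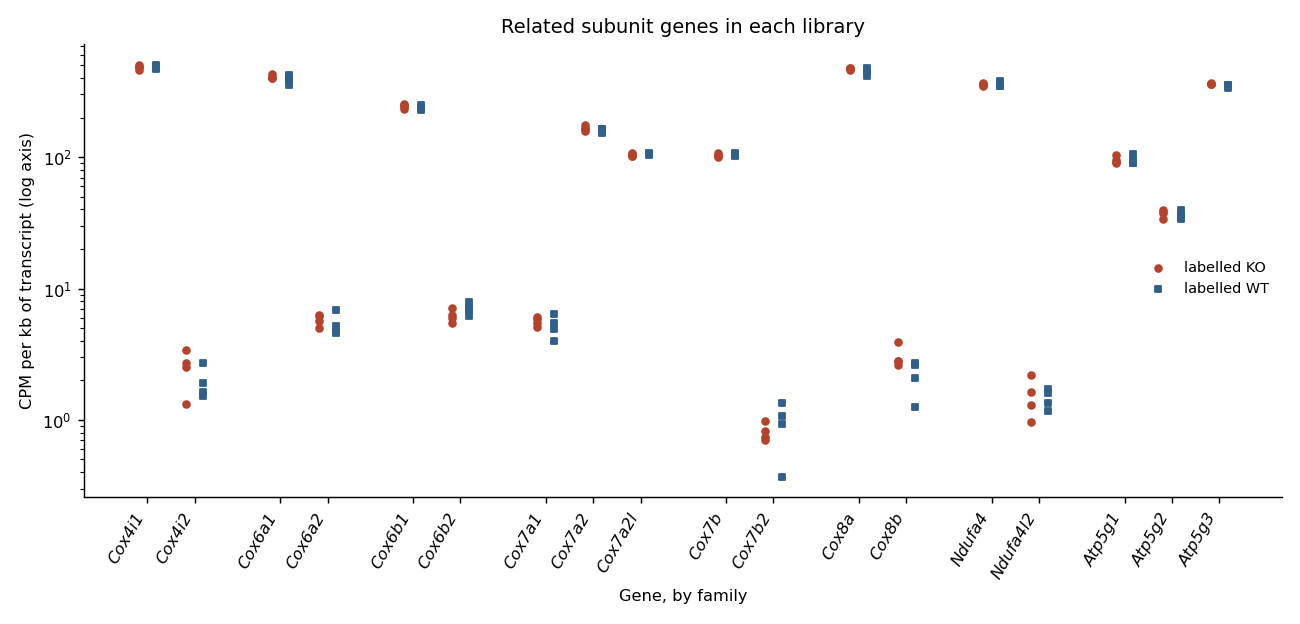
Level per kilobase of transcript (CPM per kb, log axis) of the related subunit genes, by family, in each of the 4 libraries labelled KO (circles) and the 4 labelled WT (squares). One form stands far above the other in the Cox4i, Cox6a, Cox6b, Cox7b, Cox8 and Ndufa4 families, where it holds a mean of at least 97.1%, while Cox7a2 lies less far above Cox7a2l and Atp5g3 stands above Atp5g1 and Atp5g2, of which Atp5g1 would lie below Atp5g2 with the longest transcripts.

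The minor forms of these families were measured on few reads. Cox7b2 was at 0.447, 0.382, 0.529 and 0.401 CPM in KO, against 0.505, 0.735, 0.20 and 0.583 CPM in WT, and was the 1 gene of the 91 that the filter on low counts removed, which left 90 for the test. A count of 3, taken as the limit of detection, corresponds to 0.150 to 0.252 CPM in these libraries. Cox8b measured 1.42, 1.02, 1.0 and 0.935 CPM in KO, against 0.757, 0.980, 0.949 and 0.453 CPM in WT. KO 1 was the highest and WT 4 the lowest, and the groups overlapped, with a log2 fold change of 0.43 (SE 0.28, 95% confidence interval -0.14 to 1.01). This was the largest fold change of the 90 genes and the least certain, with an adjusted p of 0.555 by edgeR. Cox4i2 (1.81 ± 0.623 CPM in KO, 1.41 ± 0.389 in WT), Cox6a2 (3.94 ± 0.385 in KO, 3.66 ± 0.695 in WT), Cox6b2 (2.89 ± 0.328 in KO, 3.28 ± 0.347 in WT), Cox7a1 (2.22 ± 0.168 in KO, 2.04 ± 0.401 in WT) and Ndufa4l2 (1.43 ± 0.501 in KO, 1.36 ± 0.227 in WT) were also under 5 CPM. For Cox7a1 and Ndufa4l2 the SD was between 7.57% and 35.1% of the mean.

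KO was then compared with WT for every gene. None of the 90 respiratory chain genes passed an adjusted p of 0.05 in either direction. Of all 15902 tested genes, 228 did (1.43%), with 182 of them higher in KO (1.14%) and 46 lower (0.289%). At so small a share, 0 of 90 is no result about the respiratory chain genes. The count over all genes fell to 110 without WT 3, 130 without KO 3 and 146 without KO 4, and the count of respiratory chain genes was 0 in each of these fits too. The lowest adjusted p among the 90 was 0.301. DESeq2 and limma-voom also passed 0 of them. At an unadjusted p under 0.05, edgeR listed 6 of the 90, all higher in KO, DESeq2 4 and limma-voom 7. For edgeR the corresponding share over all genes was 12.6% in either direction and 6.45% higher in KO. The 6 of 90 lie near the latter share, so their number is no result about the respiratory chain genes. Without KO 1, without WT 2, or without both first replicates, edgeR listed 2, while it listed 9 with GC and length trends removed, 9 with the replicate block and 10 with both. For these fits, and for DESeq2 and limma-voom, the unadjusted share over all genes was not taken, so these counts are no result about the respiratory chain genes. The adjusted count over all genes moved the same way, to 185, 174 and 162 in the first 3 fits and to 282, 495 and 547 in the last 3.

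Small positive values prevailed among them. The log2 fold change was positive in 74 of the 90 genes and negative in 16, while 48.0% of all tested genes were positive. The median was 0.046 over the 90 genes and -0.0049 over all tested genes, and single values ran from -0.19 to 0.43. The SE of a single gene had a median of 0.049. Among the genes above 10 CPM in the mean of all libraries, 69 of 83 were positive at a median of 0.045, against 50.2% of 10815 genes at a median of 0.00034. The 95% confidence interval of the fold change lay within 1.25-fold in either direction for all of these 83 genes. The remaining 7 genes, all under 10 CPM, had wider intervals. Among genes above 10 CPM, the median coefficient of variation between libraries of a group was 3.87% in KO and 3.70% in WT for the respiratory chain, against 5.40% in KO and 5.28% in WT for all genes. This coefficient includes counting noise, which falls with level, and the sets of genes were not matched for level. In bulk tissue, fewer cells of a type and less RNA per cell cannot be told apart.

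**Figure D3:**
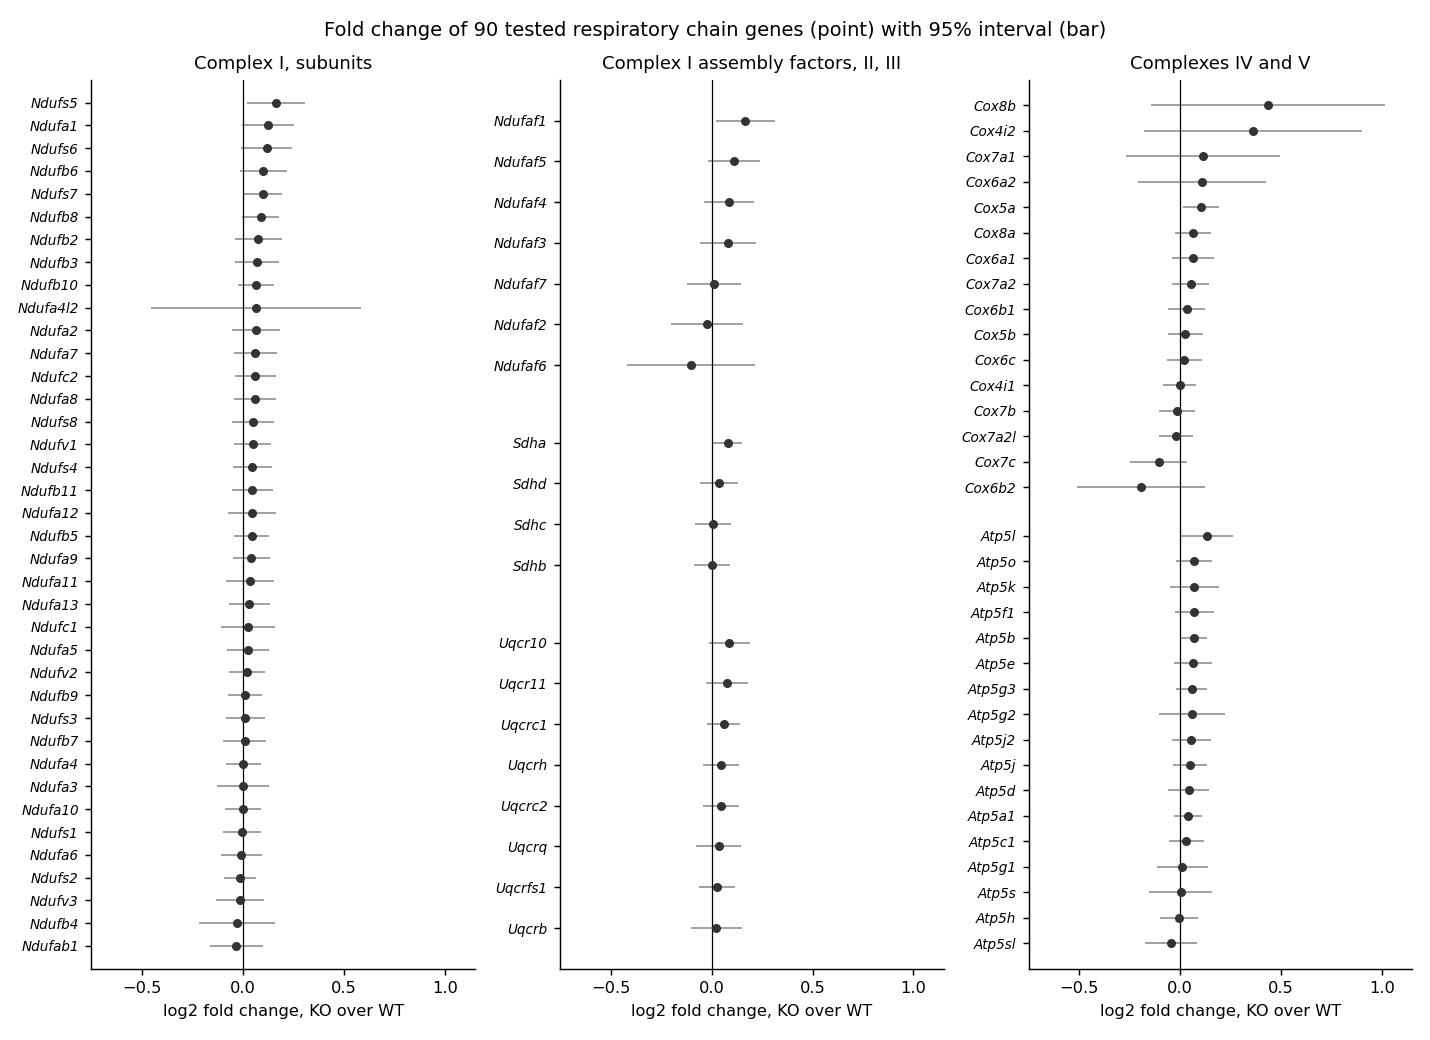
Log2 fold change of KO over WT with its 95% confidence interval for the 90 tested respiratory chain genes, ordered within each complex. Of the points, 74 lie above 0 and 16 below, and none passed the adjusted threshold.

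Positive values were found in each complex. They made up 31 of 38 complex I subunits (median log2 fold change 0.044), 5 of 7 assembly factors (0.082), 4 of 4 in complex II (0.023, although Sdhb had -0.00069 with upper-quartile scaling), 8 of 8 in complex III (0.048), 11 of 16 in complex IV (0.041) and 15 of 17 in complex V (0.055). The members are not independent replicates, and no difference between the complexes was tested. Summed over the 91 genes, the level was 10613.6, 10479.6, 10612.3 and 10263.9 CPM in KO 1 to 4, against 10055.5, 10120.6, 10263.0 and 10282.9 CPM in WT 1 to 4. KO 4 lay below WT 4, so the groups overlapped, and the ratio of the means was 1.03. The sums of complexes II, III and V and of the assembly factors did not overlap, with 802 to 831 CPM in KO and 778 to 797 CPM in WT for complex II and 3823 to 3950.5 CPM in KO and 3697 to 3800.3 CPM in WT for complex V. Those of the complex I subunits and of complex IV overlapped. These sums are not scaled to transcript length, so the most abundant genes weigh most. In complex II, Sdha had a mean of 514 of 816 CPM in KO and 486 of 785 CPM in WT. In complex V, Atp5b and Atp5a1 had 1392 and 1009 of 3881 CPM in KO, and 1329 and 981 of 3745 CPM in WT. A sum without overlap is therefore no result for every gene of its complex.

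The shift was not even over the libraries. For each library, the median over the 90 genes of the deviation from the gene's mean on the log2 scale was 0.034, 0.044, 0.037 and -0.019 in KO 1 to 4, against -0.052, -0.021, -0.0042 and -0.014 in WT 1 to 4. Over all tested genes the same quantity lay between 0.00098 and 0.0042 in every library. Scaling brings that median close to 0, so it does not measure how far a short list can move. Of the lists read further below, 16 glycolysis genes ran from -0.087 in WT 1 to 0.067 in KO 1. The 16 listed regulators ran from -0.067 in KO 1 to 0.106 in WT 1. The 40 tested assembly factors with other names moved less, from -0.030 in WT 2 to 0.035 in KO 1. KO 4 was below WT 3 and WT 4, and it had 31 of the 90 genes above their mean, against 64, 65 and 74 in KO 1 to 3 and 24 to 43 in the WT libraries. WT 1 was the lowest of the 8 libraries for 34 of the 90 genes, while it was the lowest for 16.4% of all tested genes. Without KO 4 the median log2 fold change was 0.056 with 81 genes positive, and without WT 1 it was 0.040 with 71 positive. Without both first replicates, which include WT 1, it was 0.034 with 70 positive.

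**Figure D4:**
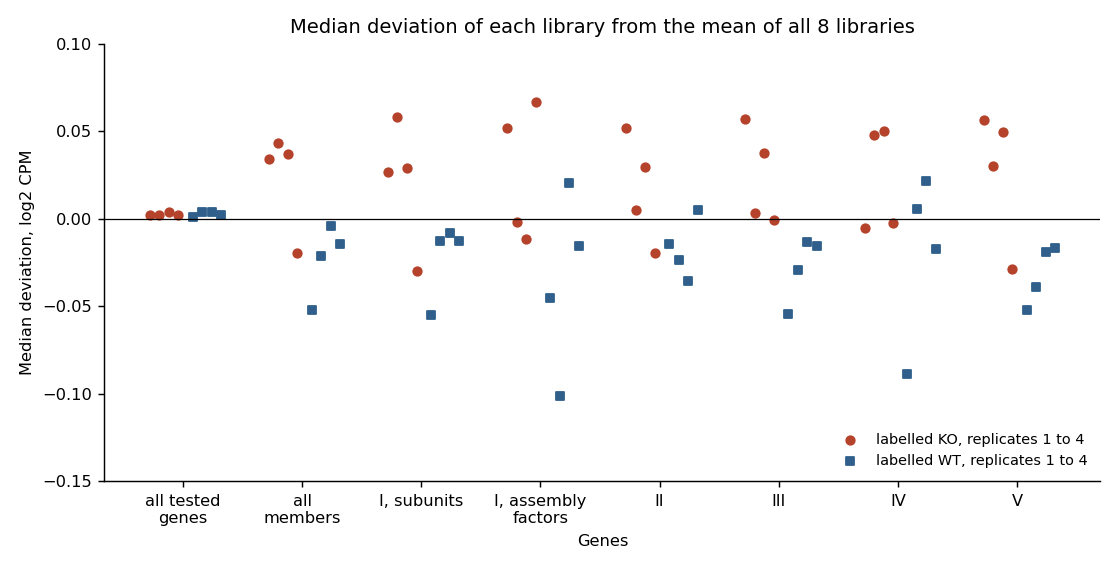
Median deviation of genes from their own mean over the 8 libraries (log2 CPM), 1 point per library labelled KO (circles) or WT (squares), for all tested genes, all 90 tested respiratory chain genes and each complex. Over the 90 genes, KO 1, KO 2 and KO 3 have medians of 0.034, 0.044 and 0.037, KO 4 has -0.019, and the 4 WT libraries lie between -0.052 and -0.0042.

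Base composition and cell type markers were set beside the fold changes of the same comparison. Over all tested genes, the log2 fold change correlated with the GC content of the transcript at a Spearman rho of 0.19 across 15677 genes, which share the same 8 libraries, and with transcript length at -0.056. The respiratory chain genes had a median GC content of 51.8%, against 50.5% over all genes, and a median length of 823.5 nucleotides, against 2758. With both trends removed, their median log2 fold change was 0.039 and 69 of 90 were positive. The 10 neuronal markers summed to 8739 to 9476 CPM in KO and 8469 to 8977 CPM in WT, and all 10 leaned towards KO, with a median log2 fold change of 0.084. One of them, Eno2, is also among the glycolysis genes below. Markers of astrocytes (1 of 6 positive, 4021 to 4333 CPM in KO and 4236 to 4397 CPM in WT), oligodendrocytes (1 of 6, 6611 to 7492 CPM in KO and 7030.2 to 7418 CPM in WT), endothelial cells (0 of 5, 116 to 128 CPM in KO and 125 to 144 CPM in WT) and choroid plexus (0 of 6, 859 to 1026 CPM in KO and 873 to 1224 CPM in WT) leaned the other way. Those of microglia had 2 of 6 positive, at 233 to 244 CPM in KO and 241 to 265 CPM in WT, and those of parvalbumin interneurons 3 of 5, at 724 to 764 CPM in KO and 715 to 756 CPM in WT. Muscle markers, of which 3 of 9 were in the table, summed to 6.94 to 9.81 CPM in KO and 6.35 to 8.95 CPM in WT, and blood markers, 5 of 7, to 50.2 to 81.1 CPM in KO and 49.7 to 74.1 CPM in WT. None of these markers passed the adjusted threshold or was at 0 in all libraries, and their part in the result was not tested.

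The 6 genes with an unadjusted p under 0.05 came from complexes I, II, IV and V, and none passed after adjustment. Cox5a (ENSMUSG00000000088, chromosome 9, 57521274 to 57532426 on GRCm38), a subunit of cytochrome c oxidase on its matrix side, measured 102, 98.3, 98.3 and 95.2 CPM in KO 1 to 4, against 94.2, 89.7, 91.0 and 92.1 CPM in WT 1 to 4. All KO libraries lay above all WT libraries, with KO 4 just above WT 1. The log2 fold change was 0.10 (SE 0.042, edgeR adjusted p = 0.301), and this adjusted p was the lowest of the 90 genes.

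Sdha (ENSMUSG00000021577, chromosome 13, 74322254 to 74350280), the succinate-oxidising subunit of complex II, measured 522, 500.3, 516 and 518 CPM in KO, against 484, 481, 484 and 496 CPM in WT. The lowest KO library, KO 2, lay above the highest WT library, WT 4. The log2 fold change was 0.080 (SE 0.034, edgeR adjusted p = 0.322), and this SE was the third smallest of the 90 genes. The other 3 subunits of complex II were closer to 0. Sdhb had a log2 fold change of 0.0031 (edgeR adjusted p = 0.989), and Sdhc and Sdhd, which anchor the enzyme in the membrane, had 0.0087 (adjusted p = 0.966) and 0.037 (adjusted p = 0.806). The sign of Sdhb and Sdhc turned in some alternatives, with values given in the closing section.

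In complex I, Ndufs7 (ENSMUSG00000020153, chromosome 10, 80249121 to 80256794), which carries an iron-sulfur cluster next to the ubiquinone site, measured 79.0, 81.4, 77.5 and 79.5 CPM in KO, against 69.9, 76.4, 75.6 and 74.0 CPM in WT. The groups did not overlap, and WT 1 was the lowest library. Its log2 fold change was 0.099 (SE 0.045, edgeR adjusted p = 0.363). Ndufs5, an accessory subunit of the membrane arm, measured 28.6, 30.0, 26.7 and 26.5 CPM in KO, against 22.1, 24.6, 26.7 and 25.8 CPM in WT, and overlapped through WT 3. Its log2 fold change was 0.16 (SE 0.069, edgeR adjusted p = 0.314), and 1 pseudogene holds a near-identical copy. Ndufa1, an X-linked accessory subunit, followed at 46.3 ± 3.18 CPM in KO and 42.5 ± 2.57 CPM in WT with an adjusted p of 0.409 by edgeR.

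Among the assembly factors, Ndufaf1, which acts on an intermediate of the membrane arm, measured 20.7, 20.1, 18.7 and 20.8 CPM in KO, against 19.4, 17.3, 17.4 and 17.4 CPM in WT. WT 1 stood above the other WT libraries and above KO 3, so the groups overlapped. The log2 fold change was 0.17 (SE 0.070, edgeR adjusted p = 0.319). Ndufaf5 (0.11, SE 0.060) and Ndufaf4 (0.087, SE 0.059) had the next lowest p, with adjusted p of 0.470 and 0.588 by edgeR, while Ndufaf2 stood at -0.022 (SE 0.085).

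In complex III, all 8 genes were positive and none had an unadjusted p under 0.05. Uqcr10, the smallest in p, is a small subunit and measured 63.5, 69.9, 64.7 and 65.3 CPM in KO, against 58.7, 62.4, 63.0 and 63.3 CPM in WT. The lowest KO library, KO 1, lay just above the highest WT library, WT 4, and the log2 fold change was 0.089 (SE 0.048, edgeR adjusted p = 0.470). Uqcr11, another small subunit, had 0.077 (SE 0.049), and Uqcrc1, a core protein on the matrix side, 0.059 (SE 0.039), both on the log2 fold change scale, with adjusted p of 0.561 and 0.570 by edgeR.

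Complex IV held 5 of the 16 negative values. Cox7c, a small subunit in the membrane, was lowest in p among them and measured 21.0, 21.3, 24.7 and 23.4 CPM in KO, against 24.4, 25.3, 24.8 and 23.3 CPM in WT. KO 1 and KO 2 were below all WT libraries, while KO 3 and KO 4 lay among them, and the log2 fold change was -0.11 (SE 0.068, edgeR adjusted p = 0.551). Cox4i1 measured 361 ± 13.6 CPM in KO and 362 ± 10.3 CPM in WT and had a log2 fold change of -0.0030 (SE 0.039).

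In complex V, Atp5l, which encodes subunit g of the membrane part, measured 27.8, 26.9, 28.2 and 24.8 CPM in KO, against 24.8, 24.8, 24.2 and 24.7 CPM in WT. KO 4 lay within the WT libraries, which were close together, and the log2 fold change was 0.13 (SE 0.061, edgeR adjusted p = 0.381). With 9 near-identical pseudogenes, the most of any of these genes, its count is uncertain. Atp5b measured 1415, 1359, 1407 and 1385 CPM in KO, against 1306, 1309, 1334 and 1367 CPM in WT, with overlap between KO 2 and WT 4 and a log2 fold change of 0.066 (SE 0.032, edgeR adjusted p = 0.412). Atp5o, the stalk subunit that joins the catalytic head to the membrane part, had 0.069 (SE 0.042) and Atp5a1 0.040 (SE 0.033) on the same scale, with adjusted p of 0.538 and 0.673 by edgeR.

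**Figure D5:**
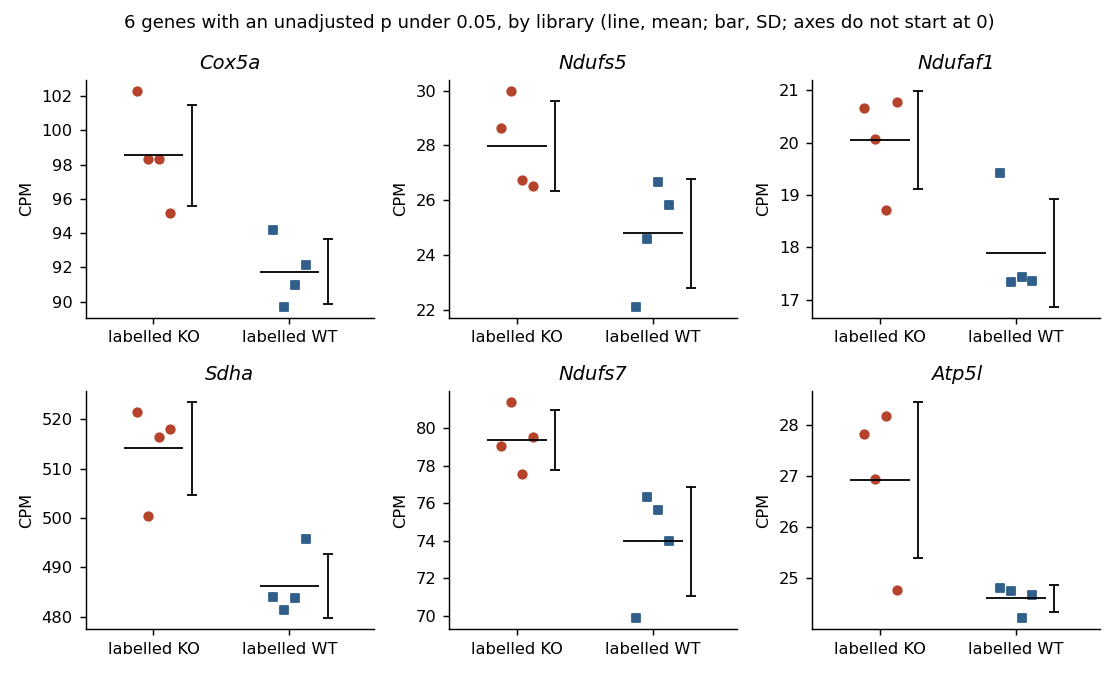
CPM of the 6 genes with an unadjusted p under 0.05 in each library labelled KO and each labelled WT, with the mean and SD of each group. Cox5a, Sdha and Ndufs7 show no overlap between KO and WT, while Ndufs5, Ndufaf1 and Atp5l each have a library within the range of the other group.

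Few of the genes separated the groups fully. All 4 KO libraries lay above all 4 WT libraries for 6 of the 90 genes (6.67%), against 4.28% of all tested genes. These were Ndufa7, Ndufs7, Sdha, Uqcr10, Cox5a and Atp5g3. Ndufa7 was in effect a tie, with KO 4 at 42.873 CPM and WT 4 at 42.866 CPM. Among genes above 10 CPM, the shares were 7.23% of 83 respiratory chain genes and 5.01% of 10815 genes. No difference between these shares was tested. The opposite held for 0 of the 90, against 3.40% of all tested genes. By position, 4 of the genes lie on chromosome 19 with Uhrf2, the nearest being Ndufb8 at 14.5 Mb with a log2 fold change of 0.088 (SE 0.043, edgeR adjusted p = 0.412).

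The promoters of these genes were searched for binding letters of 3 factors known to act on respiratory genes. Windows from 250 bases before to 50 bases after the transcription start, from RefSeq on GRCm38.p6, were at hand for 75 of the 91 genes and for 10798 genes in all, with RefSeq starts within 1000 bases of those of GENCODE. The recognition motif of nuclear respiratory factor 1 (NRF1), searched with 1 free base and marked in the sequences below, occurred on either strand in 17 of the 75 windows (22.7%), against 9.71% of all windows. CCGGAAG, a core bound by ETS factors including GABP, occurred in 16 (21.3%), against 16.5%, and AAGATGGC, bound by YY1, in 10 (13.3%), against 4.45%. At least 1 of the 3 was in 38 windows (50.7%), against 27.2% of all windows. A window counted once however often the letters occurred in it. Of the 6 genes above, Sdha and Ndufs5 had NRF1 letters and Ndufaf1 the ETS letters in the 150 bases before the start, and Uqcr11, the complex III gene second in p, had the ETS letters there too. These stretches are printed 5′ to 3′ on the strand of the gene, with the matching letters in capitals, to show their number and place. The windows are Sdha at chr13:74350241-74350390, Ndufs5 at chr4:123718187-123718336, Ndufaf1 at chr2:119662835-119662984 and Uqcr11 at chr10:80406822-80406971, all on the minus strand.
Sdha: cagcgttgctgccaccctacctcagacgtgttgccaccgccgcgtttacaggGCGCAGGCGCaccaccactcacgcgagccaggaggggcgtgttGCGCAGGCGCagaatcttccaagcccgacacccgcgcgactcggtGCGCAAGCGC
Ndufs5: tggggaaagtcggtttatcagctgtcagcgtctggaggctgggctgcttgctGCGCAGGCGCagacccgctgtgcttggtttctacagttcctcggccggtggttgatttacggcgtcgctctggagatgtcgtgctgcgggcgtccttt
Ndufaf1: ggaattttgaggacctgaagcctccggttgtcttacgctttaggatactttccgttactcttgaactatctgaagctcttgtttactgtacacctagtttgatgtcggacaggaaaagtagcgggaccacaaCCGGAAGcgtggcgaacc
Uqcr11: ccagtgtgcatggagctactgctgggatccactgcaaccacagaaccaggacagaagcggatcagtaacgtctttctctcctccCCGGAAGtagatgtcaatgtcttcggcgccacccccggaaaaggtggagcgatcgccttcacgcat

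Sdha held the NRF1 letters 3 times, beginning 98, 55 and 10 bases before the start, and Ndufs5 held them once, beginning 98 bases before it. Ndufaf1 and Uqcr11 held the ETS letters beginning 18 and 66 bases before the start. Cox5a had no match in its whole window, and neither had Uqcr10, the complex III gene lowest in p. Ndufs7 and Atp5l had matches in their whole windows, but none in the shorter stretch searched above. Ndufs7 held the YY1 letters, and Atp5l held the ETS letters 2 times, with a match beginning 212 bases before the start. A match is a description of the sequence, and no binding was measured.

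Of the factors that act on respiratory genes, 16 were listed, and 1 passed the test. Gabpb2, an activation subunit of GABP, was lower in KO at 39.1, 44.3, 42.9 and 38.7 CPM, against 50.1, 49.1, 53.8 and 48.0 CPM in WT. The groups did not overlap, and the log2 fold change was -0.29 (SE 0.059, edgeR adjusted p = 0.0150). The adjusted p was 0.0702 without KO 4, 0.0983 without WT 3 and 0.0671 without both first replicates. Of the others, 10 were positive and 5 negative. Esrrb, an orphan nuclear receptor of the estrogen-related family, was next in p with a log2 fold change of 0.25 and an adjusted p of 0.324 by edgeR. The following were named after their values were seen, because they bind the letters above or partner Gabpb2: Gabpa (-0.055), which binds the ETS letters, Gabpb1 (0.020), Nrf1 (0.022) and Yy1 (-0.093) on the log2 fold change scale, with adjusted p of 0.753, 0.949, 0.944 and 0.535 by edgeR.

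The partners of the chain were read in the same fit. Cyc1, the cytochrome c1 of complex III, was 162 ± 1.81 CPM in KO and 149.9 ± 4.58 CPM in WT (log2 fold change 0.11, SE 0.039, edgeR adjusted p = 0.233), and Cycs, cytochrome c itself, had 0.050 (SE 0.067). Of 44 assembly factors with other names, 40 were tested, 0 passed and 26 were positive at a median log2 fold change of 0.017. Foxred1, a complex I assembly factor, had -0.12 and Cox10, which makes a precursor of the heme of complex IV, 0.15, with adjusted p of 0.332 and 0.344 by edgeR. Of 17 genes of the citrate cycle and pyruvate dehydrogenase, which supply the electrons, 0 passed and 16 were positive at a median of 0.050. Suclg1, a subunit of succinyl-CoA ligase, was lowest in p at 112 ± 2.72 CPM in KO and 101 ± 3.89 CPM in WT, with a log2 fold change of 0.14 (edgeR adjusted p = 0.141), and Ogdh, of the oxoglutarate dehydrogenase complex, had 0.097 (edgeR adjusted p = 0.300). Of 11 mitochondrial carriers and pores, 0 passed and 10 were positive at a median of 0.035. The lowest p were those of the pore Vdac1 (0.068) and the aspartate-glutamate carrier Slc25a12 (0.072), with adjusted p of 0.451 and 0.472 by edgeR.

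Glycolysis, which feeds pyruvate to mitochondria, had 16 of 16 listed genes positive at a median log2 fold change of 0.088, and 1 passed the test. Ldha, which interconverts pyruvate and lactate, measured 206, 176, 196 and 194 CPM in KO, against 169.6, 169, 161 and 166 CPM in WT. It rose in KO with no overlap, with a log2 fold change of 0.21 (SE 0.046, edgeR adjusted p = 0.0216). Leaving out a library moved that adjusted p to 0.0663 without KO 1, 0.0944 without KO 3, 0.0679 without KO 4, 0.0983 without WT 3 and 0.0554 without WT 4, and it was 0.0586 without both first replicates. Aldoa, the aldolase of glycolysis, stood at 1263 ± 35.8 CPM in KO and 1159 ± 5.96 CPM in WT with a log2 fold change of 0.12 and an adjusted p of 0.0747 by edgeR, and it passed with DESeq2 (adjusted p = 0.00881) and limma-voom (adjusted p = 0.0490). The difference between the glycolysis and the respiratory chain genes was not tested.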

How the data were processed

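Trizol extracts of brain were cleaned on columns and polyadenylated RNA was made into libraries with a stranded kit, per the labels' protocols. The deposited table holds expected counts per gene for 8 libraries, not scaled between them, of which 91.5% were whole within 0.001. TopHat2 2.0.9, edgeR and the build GRCm38 (mm10) are named, with no role or order, in the submitters' processing notes. How reads were counted, and whether by strand, is not given in the sources used here. A gene and an antisense or overlapping neighbour can therefore not be told apart, and 32 of the 91 genes share exon bases with another gene, 29 of them on the opposite strand. Genes of the mitochondrial genome were not analysed here.

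After rounding to whole numbers and filterByExpr on the group, all 15902 remaining genes were fitted together with edgeR 4.0.16 (R 4.3.3), using TMM scaling and the robust quasi-likelihood test. Group was the only term, and p-values were adjusted by Benjamini-Hochberg at 0.05. Fold changes are of KO over WT, and each standard error (SE) was derived from the coefficient and the F statistic of the fit. A limit set by 3 counts covers counting error only. Positions, lengths, GC content and exon overlaps came from GENCODE M21 (GRCm38), which holds 17286 of the 17613 genes and all 91 members, with the principal transcript by APPRIS and the shortest among equals. Near-identical copies were pseudogene transcripts with at least 95% identity over at least 80% of the shorter transcript and at least 100 bases, by blastn. A short pseudogene can therefore copy only a part of the gene's transcript. Matches to genes of other kinds were not counted, such as 33 for Ndufaf7, of which 10 were in the count table. Libraries of a group differed beyond sampling noise (chi-square over degrees of freedom 2.43 to 4.91), so all 8 were kept. The common coefficient of variation beyond counting noise was 5.38%. The tests were tested on simulated data.

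The members, the companion lists and the cell type markers were chosen with earlier results of these data known, so patterns in them are no independent support. Genes were named by a rule: Uhrf2, Cox5a, Ndufs7 and Sdha, any member past the threshold, the 3 lowest p and the 2 highest levels per length in each complex, all members of families of tissue forms, members removed by the filter, and the 2 lowest p of each companion list. The alternatives tried were upper-quartile and median-ratio scaling, no filter on counts, a filter above 1 CPM in 4 or more libraries, limma-voom (limma 3.58.1), DESeq2 1.42.0, removal of GC and length trends, a replicate block, each library left out, and, chosen after seeing the data, both first replicates left out and the longest transcripts for shares within families.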

Additional observations from a re-analysis of the deposited data

Results flagged for a closer look

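Samples far from the others of their group were looked for in 98 groups of 4 libraries, by the gap of the highest or lowest library to its neighbour over the range of the group, against the 95% critical value of Dixon. Chance alone marks about 1 in 20 such groups, and 5 were marked. Ndufb9 had KO 2 highest at 153 CPM, with the other KO libraries close to 147. Ndufaf2, an assembly factor of complex I, had KO 2 highest at 15.3 CPM. The summed level of the complex I subunits had KO 4 lowest among the KO libraries at 2889.5 CPM. Ndufaf1 had WT 1 highest among the WT libraries at 19.4 CPM, and Uhrf2 had WT 2 lowest at 47.7 CPM.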

How the results depend on the processing

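None of the 90 respiratory chain genes passed the threshold in any of the 18 alternatives. Over all tested genes, the share past it ran from 0.689% without WT 3 to 3.44% with the replicate block and the trends removed. No difference from these shares was tested. The lowest adjusted p among the 90 genes ranged from 0.0929, with the replicate block and the GC and length trends removed, to 0.387 without KO 1. Their median log2 fold change was 0.034 to 0.056 and 69 to 81 were positive. Of the genes, 56 were positive in the main comparison and all alternatives, 3 were negative in all, and 31 took either sign. Restricted to the tested subunits, 68 of 81 were positive at a median of 0.047. Same-numbered libraries deviated together at r = 0.208, 0.0772, 0.0245 and 0.0673 for numbers 1 to 4. Libraries with unlike numbers had r from -0.149 to 0.110, and only number 1 lay above that range. The labels name no pairs, so the numbers were not taken as pairs, and whether they mark pairs was not tested. The count over all tested genes was 228, and it was 495 with the replicate block, 547 with the block and the GC and length trends removed, 311 by DESeq2, and 110 to 324 when each library was left out in turn. The cause was not tested.

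Of 935 alternative values for single genes, 890 kept their direction and side of the threshold, 9 lost and 5 gained a call, and 31 in 9 genes turned sign. With GC and length trends removed, and with the block added, the log2 fold change was -0.013 and -0.010 for Atp5g1, 0.018 and 0.019 for Cox7b, -0.010 in both for Ndufb9, and -0.021 in both for Sdhb. With upper-quartile scaling it was -0.00046 for Ndufa4 and -0.00069 for Sdhb, and without both first replicates -0.0071 for Sdhb and -0.010 for Sdhc. With single libraries left out, values ran from -0.037 to 0.062 for Atp5g1, -0.025 to 0.020 for Cox4i1, -0.033 to 5.33e-05 for Cox7b, -0.013 to 0.032 for Ndufa4, -0.15 to 0.21 for Ndufa4l2, -0.081 to 0.021 for Ndufaf2, -0.0022 to 0.025 for Ndufb9, -0.016 to 0.030 for Sdhb and -0.0045 to 0.026 for Sdhc. The cause was not tested. The replicate block gave Aldoa an adjusted p of 0.0362 by edgeR, and with the trends removed it gave Suclg1 0.0422. Counts limit the tissue forms under 10 CPM, whose intervals allow changes of over 1.25-fold.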

Other observations

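Subunit genes with near-identical pseudogene copies were compared with the others by level. The 22 with at least 1 copy had a median of 70.1 CPM per kb and a range of 16.8 to 296, against a median of 102 and a range of 0.872 to 710.0 for the 60 with none. Their median log2 fold change was 0.037 with 16 of 22 positive, against 0.049 with 52 of 59 positive for the tested subunits without a copy. No test was made of this division, and whether reads were lost to the copies was not tested.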
